A study of Homo sapiens with 9 samples.

Results

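The glycolysis and hypoxia response genes are 35 genes, picked by symbol, of the 29740 genes counted by RNA sequencing in HMEC-1, an established line of human dermal microvascular endothelial cells. They comprise 17 enzymes from hexokinase to lactate dehydrogenase, a pair of enzymes that set the phosphofructokinase activator, carriers for glucose and lactate, a kinase that restrains pyruvate oxidation, subunits and hydroxylases of the hypoxia-inducible factor (HIF), and hypoxia-induced genes outside glycolysis. All 35 passed the expression filter, as did 14740 genes in all. The study asked how trimethylamine N-oxide (TMAO), a metabolite derived from gut bacteria, alters endothelial cells over time. The 3 groups were untreated controls (CTRL), cells given 50 µM TMAO for 24H and cells given 50 µM TMAO for 48H, with 3 libraries in each. During treatment the cells were kept in medium with reduced serum. The study used one pooled set of controls for its time-points and how long each control was cultured is not given, so treatment and time in culture cannot be told apart. HMEC-1 is one immortalised line grown alone in a dish, and the labels do not say whether replicates were separate cultures. The study's general statement that its experiments were repeated independently does not name the sequencing libraries, so p-values may measure only technical spread between them.

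Glycolysis breaks glucose down to pyruvate in the cytosol and yields ATP without oxygen, and lactate dehydrogenase then turns pyruvate into lactate. Endothelial cells rely on this route for most of their ATP, even where oxygen is plentiful. HIF, a pair of an alpha subunit and ARNT, is kept low in oxygen because prolyl hydroxylases mark the alpha subunits for destruction, and when oxygen falls it binds short DNA motifs and switches on glucose transporters, most glycolytic enzymes and other genes. HIF alpha is controlled largely at the protein level, so the mRNA of HIF1A is not a measure of HIF activity, while the mRNAs of its targets are often read as one.

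Total estimated counts ranged from 29160868 to 30069548 in CTRL, from 32179428 to 36927373 at 24H and from 25205756 to 32563494 at 48H, and 3 counts correspond to 0.0869 to 0.115 CPM (counts scaled to a common library size). Levels are given as CPM scaled by the TMM method. Ribosomal RNA genes took 31.5% of the counts of TMAO 24H replicate 1, while elsewhere they took 1.64% to 7.46%, with CTRL replicate 3 next highest. TMAO 48H replicate 3 stood apart on 4 of 6 epithelial keratin and adhesion genes. Its KRT8 and KRT18 levels, 46.4 and 573 CPM, lay within the range of the other libraries. Its KRT5 level was 4.12 CPM against 25.1 to 53.6 CPM in the other 8 libraries, KRT14 was 2.23 CPM against 18.2 to 35.1 CPM, and EPCAM was 1.25 CPM against 6.64 to 9.53 CPM. CDH1 was likewise lowest there, at 1.13 CPM against 2.78 to 5.13 CPM. Counts of changed genes are given below with and without these libraries.

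The endothelial label held for most of its markers. CDH5, PECAM1 and TIE1 averaged 698, 343 and 542 CPM in CTRL, whereas the tight junction gene CLDN5 averaged 1.65 CPM. Among markers of other cell types, PTPRC was at no more than 0.0994 CPM, CD3E and DPT were at 0 in every library, and DCN and LUM were at no more than 0.0737 and 0.0383 CPM. Other members of those lists were expressed. The fibroblast markers COL1A1, COL1A2 and PDGFRB averaged 678, 295 and 48.0 CPM in CTRL, the smooth muscle markers SMTN and TAGLN 118 and 80.8 CPM, and the epithelial markers KRT18, KRT5, KRT14 and EPCAM 659, 41.0, 27.5 and 7.31 CPM. In bulk RNA, fewer cells of a type and less RNA per cell cannot be told apart.

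In untreated HMEC-1 the pathway was expressed unevenly along its steps. Divided by transcript length, the level in CTRL was highest for GAPDH, at 1656 ± 52.6 CPM per kilobase (SD, n = 3), followed by ENO1 at 811 ± 48.7, PKM at 512 ± 24.3 and TPI1 at 504 ± 21.5 CPM per kilobase, and the last pair differed by less than their SDs. At the entry steps the isoenzymes were far apart on this scale. Hexokinase 1 (HK1) stood at 56.2 ± 3.99 CPM per kilobase and hexokinase 2 (HK2) at 2.74 ± 0.266. Among the phosphofructokinase subunits PFKP was highest at 147 ± 7.79 CPM per kilobase, then PFKL at 84.2 ± 2.58 and PFKM at 31.3 ± 0.744. The glucose transporter GLUT1 (SLC2A1) was at 17.4 ± 1.77 CPM per kilobase and GLUT3 (SLC2A3) at 6.58 ± 0.301. EPAS1, which encodes HIF-2 alpha and is known for its endothelial expression, was higher than HIF1A, at 127 ± 8.92 against 70.5 ± 1.01 CPM per kilobase.

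The hypoxia-induced genes spanned a wide range in CTRL. NDRG1, a stress-responsive gene, and BNIP3L, a mitophagy receptor, were at 48.6 ± 0.977 and 43.0 ± 0.901 CPM per kilobase. The mitophagy receptor BNIP3, the vasodilator peptide gene ADM and the histone demethylase gene KDM3A followed at 17.3 ± 0.756, 11.6 ± 0.430 and 9.93 ± 0.123 CPM per kilobase. CA9, a carbonic anhydrase that is strongly induced by HIF-1 in many cells, was close to the floor. It had 10, 10 and 3 counts in the CTRL libraries, 9, 4 and 8 at 24H and 3, 14 and 6 at 48H. EGLN3, a prolyl hydroxylase gene that HIF itself induces, had 9, 5 and 6 counts in CTRL, 11, 15 and 16 at 24H and 5, 11 and 8 at 48H. The 24H libraries were the highest of the 9 for EGLN3, apart from a tie with a 48H library at 11 counts, and the CA9 groups overlapped.

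**Figure D1:**
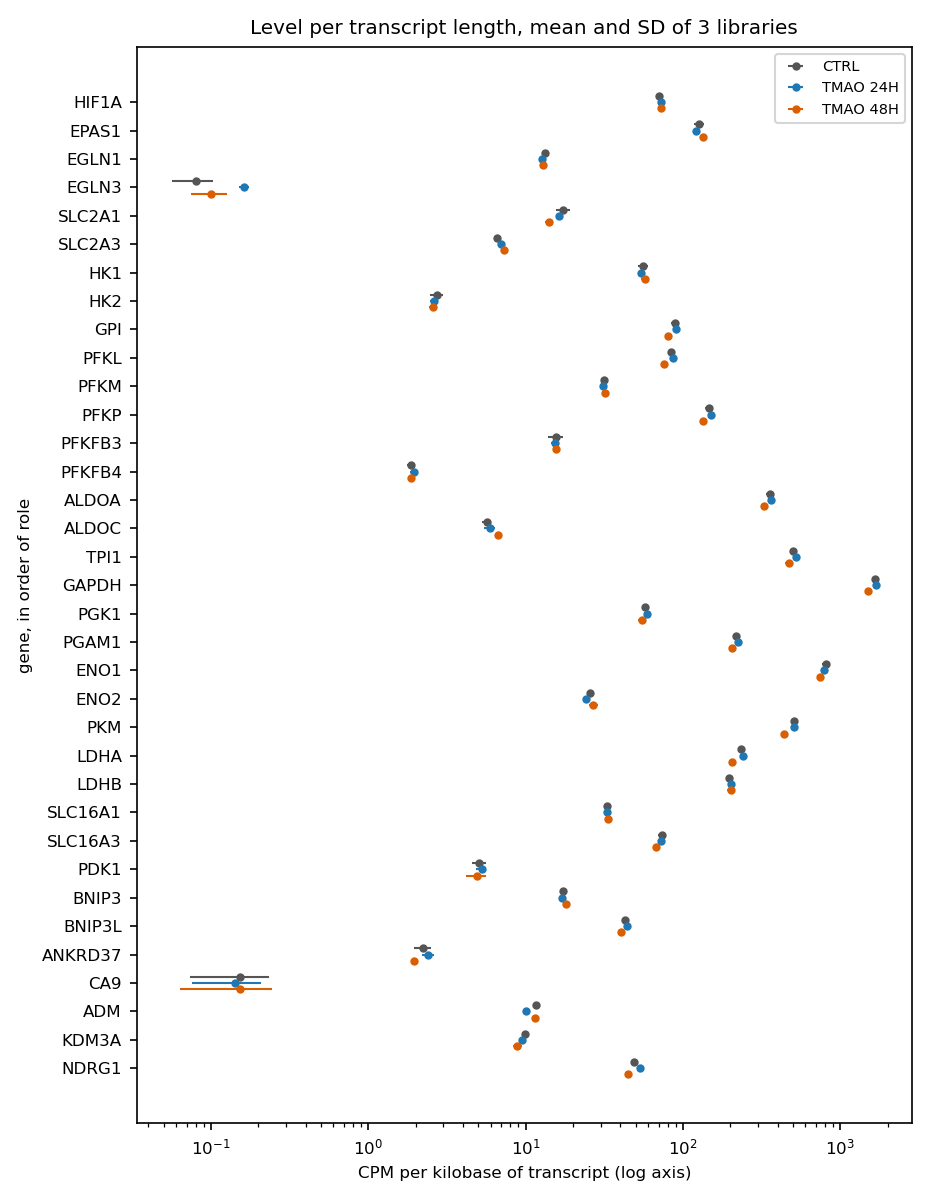
Level of the 35 genes as CPM per kilobase of transcript on a log axis, with points for the mean of 3 libraries and bars for the SD, in grey for CTRL, blue for 24H and orange for 48H. GAPDH lies highest and EGLN3 and CA9 lie lowest, and for the other genes the spread between groups is small beside the spread between genes.

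Across the 3 groups the levels moved little. Of the 33 genes with a CTRL mean of at least 1 CPM, all 33 had group means within 1.3-fold of each other, and the largest ratio between group means was 1.24. The median coefficient of variation among CTRL libraries was 4.53% over these 33 genes. A gene was called where its adjusted p-value from edgeR's quasi-likelihood test, adjusted by Benjamini-Hochberg over all 14740 genes, was under 0.05 and its change was at least 1.4-fold, the thresholds of the study. By this rule 0 of the 35 genes were called in any comparison, with edgeR or with DESeq2. The changes below are those with an adjusted p-value under 0.05 at any size. The comparisons of 24H and 48H with CTRL share the CTRL libraries, and the comparison of 48H with 24H shares libraries with both.

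**Figure D2:**
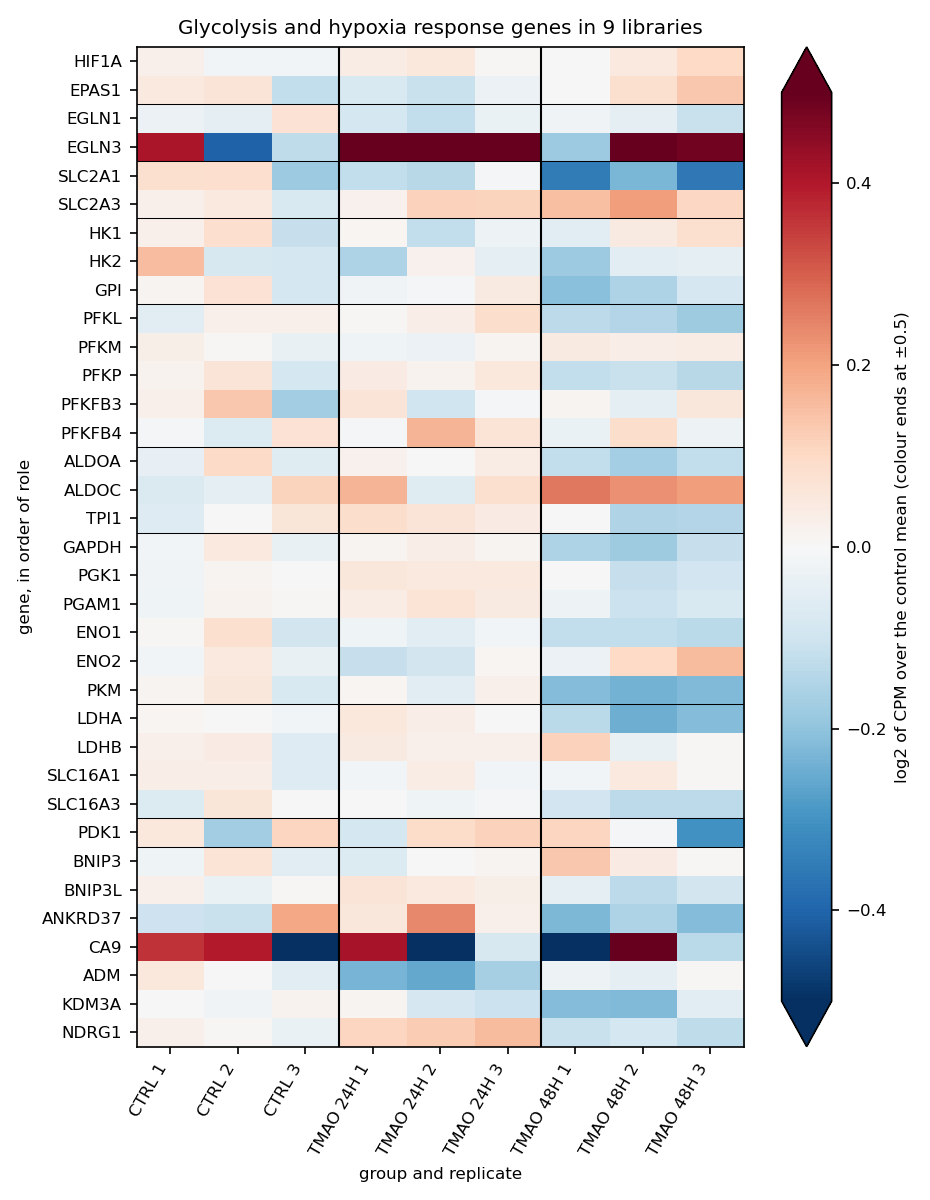
The 35 genes in the 9 libraries, coloured by log2 of the CPM over the CTRL mean, with thin lines between roles and colours that end at ±0.5. The 48H columns are blue for SLC2A1, GPI, PFKL, PFKP, ALDOA, GAPDH, ENO1, PKM and LDHA. They are blue too for other genes, such as KDM3A, NDRG1, BNIP3L, SLC16A3 and ANKRD37. The widest spread is in EGLN3 and CA9, which have at most 16 counts in a library.

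After 24H of TMAO, none of the 35 genes passed the test. With edgeR and with DESeq2, 0 of the 35 had an adjusted p-value under 0.05, where 0.095% of all genes tested passed with edgeR and 0.0475% were called at 1.4-fold. The median log2 fold change was 0.02 over the 35 genes and -0.00042 over all genes tested. For 33 of the 35, the 95% interval of the change lay within 1.4-fold in either direction, as it did for 76.4% of all genes tested, and the exceptions were EGLN3 and CA9. Of the 35 genes, 15 had a fold change below 0, as did 50.2% of all genes. At an unadjusted p under 0.05 there were 3 genes, and 7.24% of all genes passed that mark. ADM was 22.8, 21.9 and 21.1 CPM in CTRL and 18.7, 18.4 and 19.6 CPM at 24H, a log2 difference of -0.22 ± 0.059 (SE) with an adjusted p of 0.396. NDRG1 was 149, 147 and 143 CPM in CTRL and 158, 160 and 163 CPM at 24H, a log2 difference of 0.13 ± 0.036 with an adjusted p of 0.446. EGLN3 differed by 1.01 on the log2 scale, with an interval of 0.11 to 1.91 and an adjusted p of 0.659. The CTRL and 24H libraries of each of these 3 did not overlap, and none passed the adjusted test. In all, 5 of the 35 genes had every 24H library above every control and 1 had all below, where 6.73% and 7.52% of all genes did so.

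After 48H of TMAO, 4 genes at the entry, the commitment step and the end of glycolysis were slightly lower than in CTRL, and none was higher. They were the glucose transporter SLC2A1, the phosphofructokinase subunit PFKL, the pyruvate kinase PKM, and LDHA, which makes lactate from pyruvate. They make up 11.4% of the 35 genes, close to the 10.4% of all genes tested that passed in either direction. All 4 were lower, but the test took either direction, and the background of lower genes alone was 5.29%. That of higher genes was 5.14%, and that of genes called at 1.4-fold was 1.8%. The median log2 fold change was -0.07 over the 35 genes and 0.0040 over all genes. At an unadjusted p under 0.05, 13 of the 35 were lower and 2 were higher, and 25.8% of all genes passed that mark. More of the 35 genes passed the adjusted test with DESeq2, as given under the dependence on processing.

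SLC2A1 had 67.5, 67.8 and 56.4 CPM in CTRL and 50.1, 54.5 and 49.8 CPM at 48H. All 3 treated libraries lay below all 3 controls, although CTRL replicate 3 came close to the highest of them. The level fell by 19.5%, with a change of -0.31 ± 0.069 (SE) on the log2 scale and an adjusted p of 0.0125. SLC2A1 did not pass without CTRL replicate 1 (adjusted p = 0.0566) or CTRL replicate 2 (adjusted p = 0.0666). Its relative SLC2A3 had 26.2, 26.6 and 24.4 CPM in CTRL and 28.6, 29.7 and 27.7 CPM at 48H. Every 48H library was above every control for SLC2A3, and the log2 difference of 0.15 had an adjusted p of 0.108.

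LDHA had the smallest adjusted p of the 4. It had 457, 454 and 449 CPM in CTRL and 412, 383 and 390 CPM at 48H, so the groups were well apart. The level fell by 12.8%, with a change of -0.20 ± 0.041 on the log2 scale and an adjusted p of 0.00885, and only leaving out TMAO 48H replicate 2 among the single libraries took the adjusted p past 0.05, to 0.0518. LDHB, the subunit that favours the reverse reaction, had 261, 264 and 245 CPM in CTRL and 278, 250 and 258 CPM at 48H, with overlapping groups and an interval from -0.07 to 0.13 on the log2 scale. The ratio of LDHA to LDHB counts, 1 of 5 ratios computed and chosen after the values were seen, was 1.77 ± 0.058 in CTRL, 1.76 ± 0.021 at 24H and 1.51 ± 0.024 at 48H. The 48H ratios lay below all others. A two-sided exact permutation test gave p = 0.1 for 48H against CTRL, the smallest value that 3 against 3 libraries allow. No adjustment over the ratios can therefore pass. The separation was not particular to this pair. ENO1 to ENO2 (19.3 at 48H against 22.2 in CTRL) and PFKL to PFKM (2.39 against 2.73) were also lowest in the 48H libraries. The same two-sided exact permutation test gave p = 0.1 for each of them. For HK1 to HK2 (13.9 against 12.9) and GAPDH to ACTB (0.524 against 0.533), the 48H and CTRL libraries overlapped.

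PKM had 1405, 1448 and 1318 CPM in CTRL and 1198, 1181 and 1192 CPM at 48H. The 48H libraries were tightly grouped below the controls. The level fell by 14.4%, with a change of -0.22 ± 0.053 on the log2 scale and an adjusted p of 0.0177. PFKL had 236, 249 and 250 CPM in CTRL and 224, 221 and 217 CPM at 48H, again without overlap. It fell by 9.98%, with a change of -0.15 ± 0.039 on the log2 scale and an adjusted p of 0.0277. When a trend on transcript GC content was removed from each library, PFKL was at -0.05 (adjusted p = 0.473) and PKM at -0.17 (adjusted p = 0.0825), so neither passed, and LDHA and SLC2A1 still passed. Neither PFKL nor PKM passed without CTRL replicate 2 (adjusted p of 0.101 for PFKL and 0.0817 for PKM) or without TMAO 48H replicate 2 (0.0836 and 0.0711). PFKL also did not pass without CTRL replicate 3 (0.0523) or TMAO 48H replicate 3 (0.0689), nor did PKM without CTRL replicate 1 (0.0602).

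**Figure D3:**
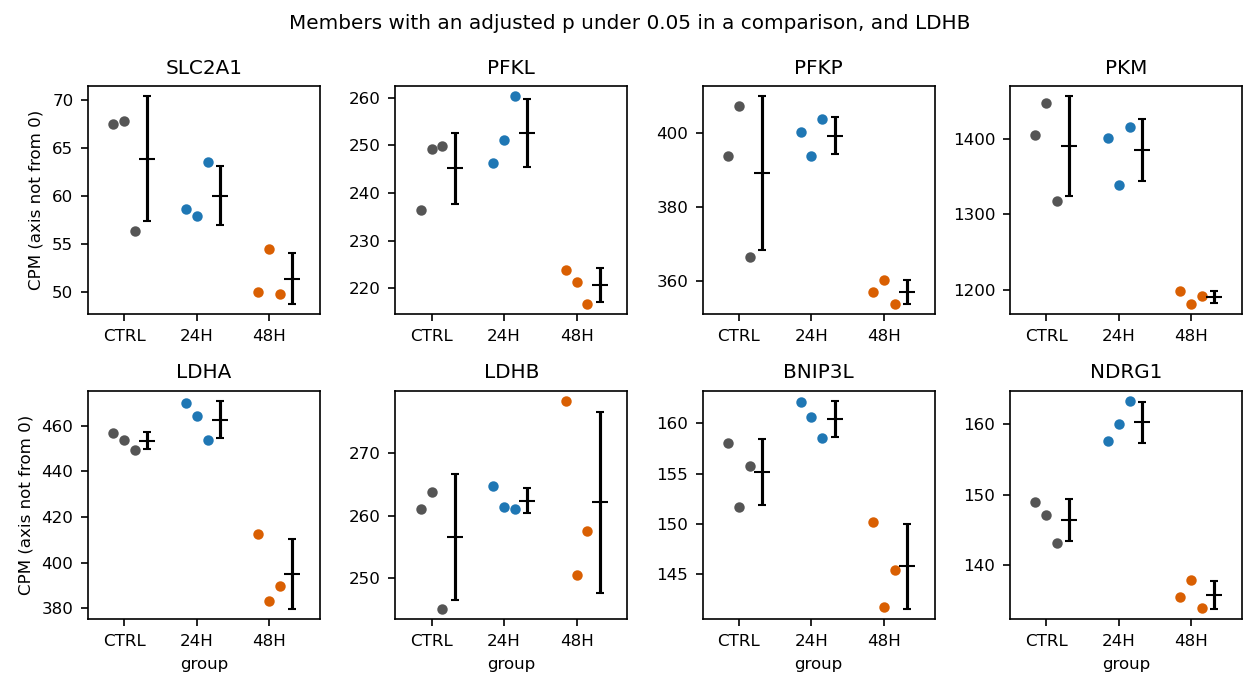
CPM in each library for the 7 genes with an adjusted p under 0.05 in a comparison and for LDHB, with the mean and SD of 3 libraries beside the points and axes that do not start at 0. The 48H points lie below all CTRL points for SLC2A1, PFKL, PFKP, PKM, LDHA, BNIP3L and NDRG1, and the LDHB groups overlap.

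The other glycolytic enzymes lay on both sides of 0 without passing. Of all 17 enzymes, 12 had a fold change below 0 at 48H, where 49% of all genes did. The 12 include PFKL, PKM and LDHA, which had passed as lower. The median log2 fold change of the 17 was -0.10. In the middle of the pathway, the isomerase GPI (-0.15, adjusted p = 0.0682), the aldolase ALDOA (-0.14, adjusted p = 0.078) and the enolase ENO1 (-0.13, adjusted p = 0.165) had log2 differences below 0. PGK1 and PGAM1, a kinase and a mutase of the ATP-yielding phase, were at -0.07 each with adjusted p-values of 0.301 and 0.278. ALDOC at 0.23 (adjusted p = 0.107), ENO2 at 0.08 (adjusted p = 0.392), PFKM at 0.04 (adjusted p = 0.567) and HK1 at 0.02 (adjusted p = 0.839) had log2 differences above 0, and HK2 was at -0.09 (adjusted p = 0.528). None of these passed. Of the 35 genes, 14 had all 48H libraries below all controls and 3 had all above, where 13% and 14.7% of all genes did so.

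Summed over the 17 enzymes, the level was 8791, 9148 and 8553 CPM in CTRL, 8935, 8835 and 8956 CPM at 24H and 8140, 7939 and 8075 CPM at 48H. The 48H sums lay below all 6 other libraries. The enzymes thus took 0.883% ± 0.030 (SD, n = 3) of the scaled counts in CTRL, 0.891% ± 0.0065 at 24H and 0.805% ± 0.010 at 48H. Over raw library totals the mean sums were 9130, 8328 and 8427 CPM, and the 24H mean was then the lowest, with 31.5% ribosomal counts in 1 of its libraries.

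GAPDH alone made up 24.6% to 25.8% of that sum in a library. It is treated apart because the study used it as the RT-qPCR reference. GAPDH had 2209, 2311 and 2175 CPM in CTRL, 2250, 2283 and 2251 CPM at 24H and 2005, 1974 and 2061 CPM at 48H. The 48H libraries were all below the controls, and the log2 fold change was -0.15 ± 0.057 with an interval from -0.27 to -0.02 and an adjusted p of 0.118. Whether GAPDH passed depended on the method, since the adjusted p was 0.000447 with DESeq2, 0.0355 with the older edgeR fit and 0.0485 without ribosomal RNA genes. Against ACTB, another common reference, the GAPDH ratio was 0.533 ± 0.020 in CTRL, 0.587 ± 0.021 at 24H and 0.524 ± 0.011 at 48H. The primers of the study are shown because they define what that reference reads.
GAPDH forward primer: acagttgccatgtagacc
GAPDH reverse primer: ttgagcacagggtacttta
They matched GENCODE release 29 transcripts of GAPDH and of no other gene without mismatch, at chr12:6538281-6538298 and chr12:6538350-6538368 of GRCh38 on the plus and the minus strand. Both sites lie in exon 9 of 9, in the 3′ untranslated part, and the product is 88 bases long.

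None of the HIF subunits, prolyl hydroxylases or pyruvate dehydrogenase kinase passed the test. HIF1A had 281, 274 and 274 CPM in CTRL, 284, 287 and 278 CPM at 24H and 277, 286 and 296 CPM at 48H, with overlap between CTRL and both TMAO groups. Its log2 difference at 48H was 0.05 ± 0.039 with an adjusted p of 0.445. An antisense gene, HIF1A-AS2, was counted at 13.0% of the HIF1A level, and since strand use in counting is not given in the sources used here, reads of the pair cannot be told apart. EPAS1 had 680, 688 and 605 CPM in CTRL, 623, 609 and 644 CPM at 24H and 658, 695 and 722 CPM at 48H, with a log2 difference at 48H of 0.07 ± 0.056 and an adjusted p of 0.452. EGLN1, the main oxygen-sensing prolyl hydroxylase, was at -0.06 with an interval from -0.16 to 0.04. PDK1, which inhibits pyruvate dehydrogenase and is a known HIF-1 target, had 15.8, 13.5 and 16.4 CPM in CTRL and 16.4, 15.2 and 12.3 CPM at 48H, with a log2 difference of -0.06 ± 0.108 and an adjusted p of 0.789. CTRL and 48H overlapped for PDK1 and EPAS1, while all 48H libraries lay above all 24H libraries for EPAS1 (0.15 ± 0.056, adjusted p = 0.146).

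Hypoxia-induced genes outside glycolysis gave 0 of 7 with an adjusted p under 0.05 at 48H against CTRL, where 10.4% of all genes passed. KDM3A (-0.16, adjusted p = 0.0727), NDRG1 (-0.11, adjusted p = 0.0745) and BNIP3L (-0.09, adjusted p = 0.149) had log2 differences below 0. BNIP3 was at 0.06 with an interval from -0.05 to 0.17, and ADM at -0.02 with an interval from -0.15 to 0.10. CA9 had a log2 difference of 0.05 with an interval from -1.25 to 1.35, which at its few counts is too wide to give a direction. The intervals of 32 of the 35 genes lay within 1.4-fold either way, as for 71.5% of all genes, with EGLN3, CA9 and the ankyrin repeat gene ANKRD37 as the exceptions. The lactate exporter SLC16A3 was at -0.12 (adjusted p = 0.0756), and SLC16A1, which carries lactate both ways, at 0.01 with an interval from -0.07 to 0.10.

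**Figure D4:**
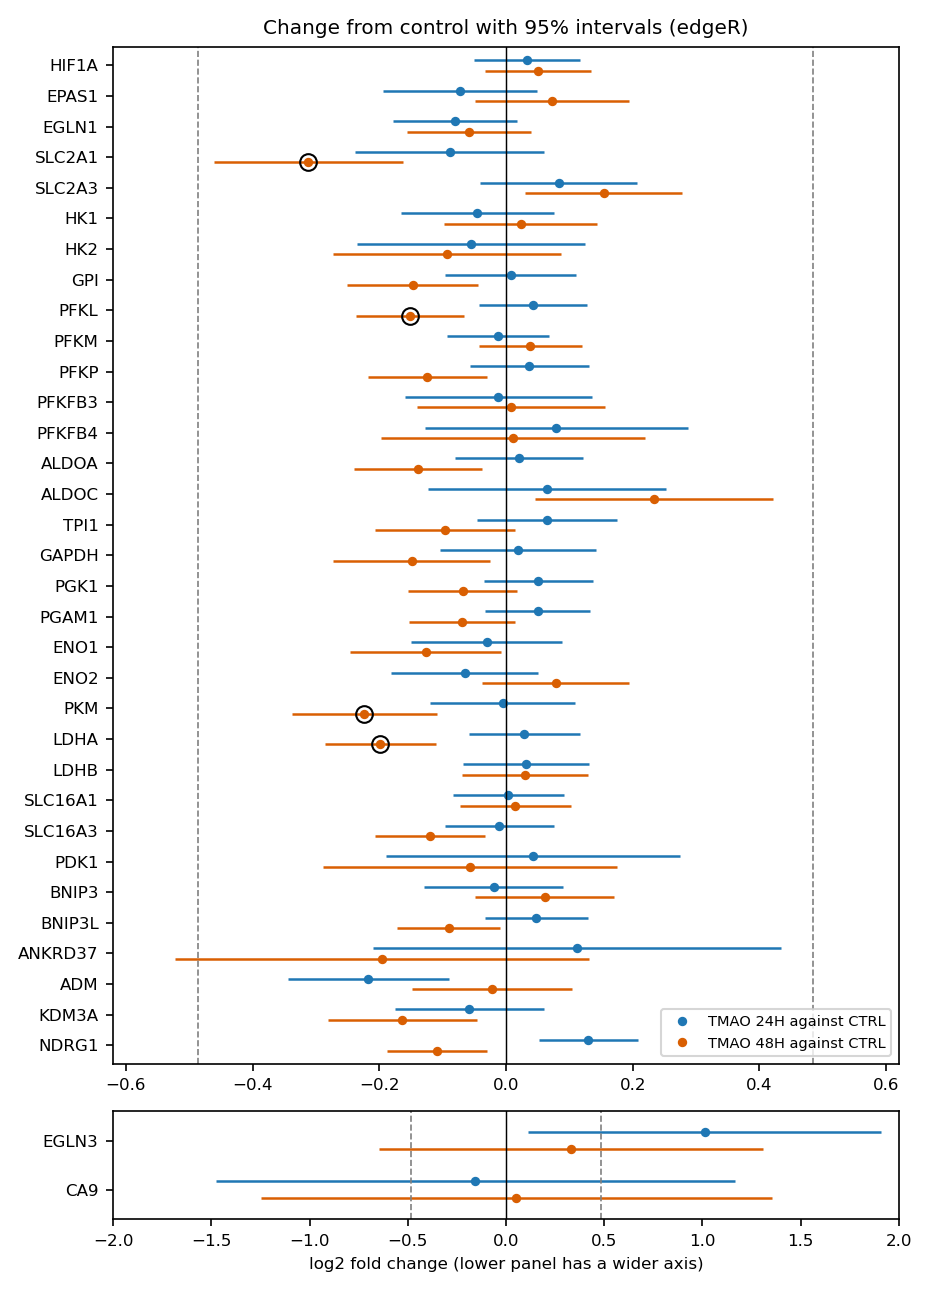
Log2 fold change from CTRL at 24H (blue) and 48H (orange) with 95% intervals from edgeR, where black rings mark an adjusted p under 0.05 and dashed lines mark a 1.4-fold change. SLC2A1, PFKL, PKM and LDHA are ringed at 48H and no gene is ringed at 24H, and EGLN3 and CA9 stand in a lower panel with a wider axis.

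The promoters of the 4 genes that passed at 48H were searched for the core of the HIF-binding motif. The letters ACGTG or GCGTG were counted on both strands in the 250 bases before the RefSeq start of each gene (GRCh38.p14). ACGTG overlaps the E-box CACGTG, which other factors bind and which counts once on each strand. Windows were given for 31 of the 35 genes, without SLC2A3, SLC16A1, BNIP3L and NDRG1, and 20 of them held a match (64.5%), against 43.2% of 35116 windows of all genes and 83.3% of 30 windows of other hypoxia-induced genes. LDHA had 5 matches, which start 185, 184, 87, 86 and 73 bases before the start of the gene and form 3 places, of which the first and the second are E-boxes. PFKL had 1 match, 164 bases before the start, and SLC2A1 and PKM had 0. The windows of LDHA (chr11:18394313-18394562, plus strand), PFKL (chr21:44299803-44300052, plus strand) and SLC2A1 (chr1:42958869-42959118, minus strand) are shown, with matches in capitals. Among the 4 genes that passed at 48H, these windows hold the most, a single and no match.
LDHA: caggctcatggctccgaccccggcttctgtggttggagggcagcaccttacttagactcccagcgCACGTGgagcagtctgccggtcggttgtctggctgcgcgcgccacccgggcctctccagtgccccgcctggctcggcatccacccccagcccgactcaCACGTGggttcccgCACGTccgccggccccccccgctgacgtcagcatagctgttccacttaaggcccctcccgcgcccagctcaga
PFKL: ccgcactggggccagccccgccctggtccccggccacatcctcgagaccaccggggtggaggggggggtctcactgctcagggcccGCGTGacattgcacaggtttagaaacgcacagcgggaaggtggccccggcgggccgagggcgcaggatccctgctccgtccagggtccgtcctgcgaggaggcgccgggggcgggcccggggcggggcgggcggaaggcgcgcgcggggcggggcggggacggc
SLC2A1: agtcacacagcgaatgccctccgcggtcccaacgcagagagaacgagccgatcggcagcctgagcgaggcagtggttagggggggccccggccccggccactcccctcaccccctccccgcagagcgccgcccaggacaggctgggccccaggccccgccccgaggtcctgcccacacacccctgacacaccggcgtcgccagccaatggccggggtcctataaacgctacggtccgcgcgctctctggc
A match is a run of letters and not a measured binding site, and its absence from this window says nothing of sites elsewhere.

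The comparison of 48H with 24H of TMAO uses no controls, and treatment and time in culture cannot be told apart in it. Here 6 genes were lower at the later time and none was higher. They were PFKL, PFKP, PKM and LDHA of glycolysis, the mitophagy receptor gene BNIP3L and NDRG1, or 17.1% of the 35 genes, where 7.53% of all genes passed in either direction and 3.77% were lower. At 1.4-fold, 1.71% of all genes were called, and more of the 35 genes passed with DESeq2, as given under the dependence on processing. NDRG1 had 158, 160 and 163 CPM at 24H and 136, 138 and 134 CPM at 48H, with CTRL in between at 143 to 149 CPM. The 3 groups did not overlap, and NDRG1 fell by 15.3% from 24H to 48H, a change of -0.24 ± 0.036 on the log2 scale and an adjusted p of 0.00114. LDHA had 470, 464 and 454 CPM at 24H against the 48H values given above, a change of -0.23 ± 0.041 on the log2 scale and an adjusted p of 0.00385. Here too the groups were clearly separate.

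PFKL had 246, 251 and 260 CPM at 24H and a change of -0.19 ± 0.039 on the log2 scale and an adjusted p of 0.00861. PKM had 1401, 1340 and 1416 CPM at 24H and a change of -0.22 ± 0.053 on the log2 scale and an adjusted p of 0.0234. For both, every 24H library was above every 48H library. PFKL did not pass without TMAO 24H replicate 3 (adjusted p = 0.0568), and PKM did not pass without TMAO 24H replicate 1 (0.0707) or 3 (0.110) or TMAO 48H replicate 2 (0.0876) or 3 (0.0528). PFKP had 400, 394 and 404 CPM at 24H and 357, 360 and 354 CPM at 48H, a change of -0.16 ± 0.043 on the log2 scale and an adjusted p of 0.0391. BNIP3L had 162, 161 and 159 CPM at 24H and 150, 142 and 145 CPM at 48H, a change of -0.14 ± 0.038 on the log2 scale and an adjusted p of 0.0411. Neither overlapped, but both were lost without any single 24H library, with adjusted p-values between 0.0896 and 0.151, and without TMAO 48H replicate 2 (0.1003 and 0.166) or 3 (0.0878 and 0.0838). PFKP was also lost without TMAO 48H replicate 1 (0.0610). SLC2A1 was at -0.22 with an adjusted p of 0.0695. The hexokinases, PFKM, LDHB and SLC16A1 had intervals that included 0. At an unadjusted p under 0.05, 14 of the 35 genes were lower and 3 were higher, and 22.1% of all genes passed that mark. All 48H libraries were below all 24H libraries for 17 of the 35 genes and above for 4, where 12.9% and 14.7% of all genes did so. The intervals of 32 of the 35 lay within 1.4-fold, as for 72.2% of all genes.

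The counts were repeated without the libraries that stood apart. Each is set beside the share of all genes that passed in the same setting, in either direction. Leaving out TMAO 48H replicate 3, 5 genes were lower at 48H against CTRL (10.7% of all genes passed) and 4 at 48H against 24H (7.06%). Leaving out TMAO 24H replicate 1, 3 were lower at 48H against 24H (4.38%). Without both, a setting added after the data were seen, 3 were lower at 48H against CTRL (8.99%), among them SLC2A1 (-0.29, adjusted p = 0.0371) and LDHA (-0.19, adjusted p = 0.0432), and 1 at 48H against 24H (4.34%), which was NDRG1 (-0.24, adjusted p = 0.0172). LDHA was then at -0.21 between 24H and 48H with an adjusted p of 0.0646. The count at 48H against CTRL was 8 without CTRL replicate 3 (8.85%), 2 without CTRL replicate 1 (6.38%), 1 without CTRL replicate 2 (5.25%) and 1 without TMAO 48H replicate 2 (4.71%). At 48H against 24H it was 2 without TMAO 24H replicate 3 (3.75%) and 3 without TMAO 48H replicate 2 (3.94%).

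Other genes of the same pathways were read from lists that do not overlap the 35. Of 8 tested HIF regulators 2 passed at 48H against CTRL (25%, against 10.4% of all genes). CITED2, which competes with HIF alpha for its coactivators, rose from 191 to 229 CPM (log2 fold change 0.26 ± 0.043, adjusted p = 0.00263), and HIF3A, a HIF alpha that can act as an inhibitor, fell from 5.22 to 3.57 CPM (-0.55 ± 0.130, adjusted p = 0.0184). ARNT, VHL and HIF1AN did not pass, at log2 differences of 0.10, 0.07 and 0.08. Between 24H and 48H, 2 of the 8 passed (25%, against 7.53% of all genes). CITED2 rose by 0.48 ± 0.043 on the log2 scale, from 164 to 229 CPM, with an adjusted p of 1.80e-05. HIF3A had a log2 difference of -0.53 ± 0.130, from 5.17 to 3.57 CPM, with an adjusted p of 0.0249. Without TMAO 24H replicate 1, 0 of the 8 were lower in this comparison.

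Of 40 other hypoxia-induced genes, 9 were lower and 1 was higher at 48H against CTRL (25%, against 10.4% of all genes), and their median log2 fold change was -0.03. The collagen cross-linking oxidase LOXL2 fell from 422 to 332 CPM (-0.35 ± 0.050, adjusted p = 0.000961), and DDIT4, an inhibitor of mTORC1, fell from 37.1 to 29.1 CPM (-0.35 ± 0.054, adjusted p = 0.00168). ANGPTL4, PLOD1, P4HA2, LOX, PDGFB and ANKZF1 also fell, and INSIG2, which holds back sterol synthesis, rose. VEGFA, the growth factor most often used as a HIF target, was at -0.06 with an adjusted p of 0.689. Between 24H and 48H, 8 of the 40 were lower and 0 were higher, where 3.77% of all genes were lower and 3.77% higher, with ANGPTL4, a lipoprotein lipase inhibitor, at -0.62 ± 0.095 (adjusted p = 0.00127). At 24H against CTRL, 0 of the 40 passed with edgeR (0.095% of all genes did), and 5 had an unadjusted p under 0.05 (7.24% of all genes did).

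Of 25 tested other genes of glycolysis and pyruvate handling, 1 passed at 48H against CTRL (4%, against 10.4% of all genes). It was PFKFB2, which makes the phosphofructokinase activator and rose from 1.71 to 2.64 CPM (0.62 ± 0.180, adjusted p = 0.0435). Of 13 tested other carriers of sugars and lactate, 0 passed at 48H against CTRL with edgeR (10.4% of all genes did) and 3 had an unadjusted p under 0.05 (25.8% of all genes did). SLC16A9, a carnitine carrier of the same family, fell between 24H and 48H (-0.62 ± 0.165, adjusted p = 0.0382). In the pentose phosphate pathway 3 of 11 passed at 48H against CTRL (27.3%, against 10.4% of all genes), of which 2 were higher and 1 was lower. The higher ones were H6PD, an enzyme of the endoplasmic reticulum (0.21 ± 0.046, adjusted p = 0.0113), and the isomerase RPIA (0.30 ± 0.064, adjusted p = 0.0109).

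**Figure D5:**
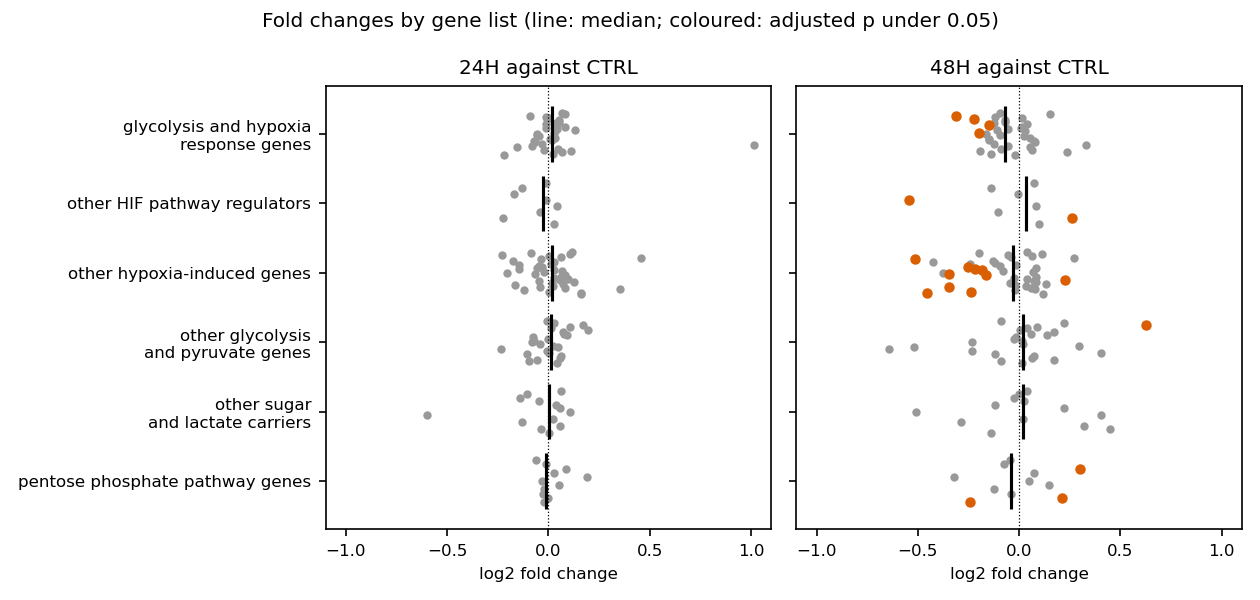
Log2 fold change of each gene at 24H and 48H against CTRL for the 35 genes and 5 other lists, with a line at the median and colour for an adjusted p under 0.05. No gene is coloured at 24H, and at 48H the coloured genes of the 35 and of the other hypoxia-induced list lie below 0 but for INSIG2.

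Markers of cell identity moved at 48H as well. Of 15 endothelial markers 8 were lower at 48H against CTRL (edgeR, adjusted p under 0.05), where 5.29% of all genes tested were lower and 5.14% higher. These shares are the background for each marker list named here. The endothelial markers' summed level was 3428, 3409 and 3090 CPM in CTRL, 3202, 3075 and 3267 CPM at 24H and 2726, 2757 and 2966 CPM at 48H, with CDH5 the most abundant. Of 8 fibroblast markers 5 were tested, of which COL1A1 (-0.67) and COL1A2 (-1.08) fell and FBLN1 (0.40) rose. Their summed level was 937 to 1092 CPM in CTRL, 947 to 1023 CPM at 24H and 597 to 654 CPM at 48H, with COL1A1 on top. Of 6 smooth muscle markers 5 were tested, of which ACTA2 (0.74) and TAGLN (0.33) rose and SMTN (-0.18) fell, with sums of 195 to 211 CPM in CTRL, 190 to 195 CPM at 24H and 209 to 220 CPM at 48H and SMTN on top. Of 6 epithelial markers KRT18 (-0.24), the most abundant, fell, and the sums were 764 to 835 CPM in CTRL, 721 to 766 CPM at 24H and 629 to 710 CPM at 48H. Of 10 proliferation markers CCNA2 (0.13) rose, and the sums, led by TOP2A, were 2916 to 3056 CPM in CTRL, 3001 to 3077 CPM at 24H and 3119 to 3300 CPM at 48H. Of 6 leukocyte markers 2 were tested and 0 passed, and CD68 led sums of 19.5 to 23.5 CPM over all libraries. The part of these markers in the lower enzyme levels at 48H was not tested.

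The other lists and the markers were also read at 48H against CTRL without the libraries that stood apart, a choice made after the data were seen. Of all genes 10.7% passed without TMAO 48H replicate 3 and 8.99% without both it and TMAO 24H replicate 1, in either direction. CITED2 and HIF3A passed without TMAO 48H replicate 3 (adjusted p = 0.00748 and 0.00499) and without both that library and TMAO 24H replicate 1 (adjusted p = 0.0135 and 0.00781). Of the 40 other hypoxia-induced genes, 10 were lower without TMAO 48H replicate 3 and 7 without both, and 1 was higher each time. PFKFB2 no longer passed, at 0.65 (adjusted p = 0.0597) and 0.65 (adjusted p = 0.0516), while G6PC3, a phosphatase of glucose 6-phosphate, passed only without TMAO 48H replicate 3 (-0.26, adjusted p = 0.0489). Of the other carriers 0 passed at 48H against CTRL with all libraries, and SLC16A9 was gained in both settings. It was at -0.63 (adjusted p = 0.0421) and -0.62 (adjusted p = 0.0375). In the pentose phosphate list 3 genes were higher and 1 was lower without TMAO 48H replicate 3, and 1 was higher and 1 lower without both, when H6PD had an adjusted p of 0.0539. Of the 15 endothelial markers 8 were lower in either setting. COL1A1 was at -0.71 in both, COL1A2 at -1.14 in both, and FBLN1 no longer passed (adjusted p = 0.0674 and 0.0753). CCNA2 passed without TMAO 48H replicate 3 (adjusted p = 0.0447) and did not without both (adjusted p = 0.0797).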

How the data were processed

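RNA from 9 HMEC-1 samples was sequenced, and the authors processed the reads with the nf-core RNAseq pipeline, with Trim Galore named in the submitters' processing notes. They deposited estimated counts (expected counts per gene, not normalised) for 29740 genes. The quantifier, genome build, annotation and strand setting are not given in the sources used here. Samples were grouped by their labels. The 35 genes and all lists were chosen with earlier results of these data known.

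After rounding the estimated counts, edgeR 4.0.16 in R 4.3.3 was run with filterByExpr, TMM scaling and a quasi-likelihood fit (legacy = FALSE) of all 9 libraries, with Benjamini-Hochberg adjustment over 14740 genes. Standard errors were derived from the F statistic. The estimated biological coefficient of variation was 0.0744. The fit was tested on simulated data. Transcript length and GC content came from GENCODE release 29, with GC for 35 of 35 genes and 89.8% of those tested, and another choice of transcript would shift the levels per kilobase. Full statistics are given for genes with an adjusted p under 0.05 in any comparison and, whatever their values, for HIF1A, EPAS1, SLC2A1, GAPDH, LDHA, PDK1 and CA9. From other lists, genes past 1.4-fold or with the 3 smallest adjusted p-values are given, and further genes were named after their values were seen. Promoter windows came from RefSeq.

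The alternatives were DESeq2 1.42.0, RLE factors, other filters on low counts, the older quasi-likelihood fit, only the 2 groups compared, a test against a 1.4-fold change, the replicate number as a block, removal of ribosomal RNA genes, GC correction, and leaving out libraries. RT-qPCR and metabolite measurements were not analysed here. Some genes of the other lists that the naming rule covers are counted but not reported here by name.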

Additional observations from a re-analysis of the deposited data

Results flagged for a closer look

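For 6 of the 35 genes the log2 fold change of 48H against 24H had an adjusted p under 0.05 in edgeR. It equals the difference between the log2 fold changes of both times against the shared controls. Treatment and time in culture cannot be told apart in this comparison. The log2 fold change was -0.24 for NDRG1, -0.23 for LDHA, -0.22 for PKM, -0.19 for PFKL, -0.16 for PFKP and -0.14 for BNIP3L. All 3 libraries at 48H lay below all 3 at 24H for each. Against the controls PKM had log2 differences below 0 at both times, and the other 5 genes were above 0 at 24H and below 0 at 48H, such as NDRG1 with 0.13 (adjusted p = 0.446) and -0.11 (adjusted p = 0.0745). With 3 libraries in a group, no test for a library far from the others of its group was made.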

How the results depend on the processing

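The number of genes called at 1.4-fold was 0 in each comparison under every alternative run, except that with no fold threshold it became 4 at 48H against CTRL and 6 at 48H against 24H. No gene passed at 24H at any size under any of them. The counts at 48H were small and moved with the settings. Of the 35 genes, 4 passed at 48H against CTRL and 6 at 48H against 24H, and the counts were 9 and 13 with DESeq2, where the adjusted test was passed by 13.2% and 9.56% of all genes. With only the 2 groups compared the first count was 2, where 6.78% of all genes passed. Leaving out 1 library at a time gave 1 to 8 genes at 48H against CTRL and 2 to 9 at 48H against 24H. The shares of all genes for the counts of 1, 8 and 2 are given above. The count of 9 has no share beside it here and cannot be read against a background. Without TMAO 24H replicate 1 and TMAO 48H replicate 3 together the second count was 1. The mean enzyme sums of 8831 (CTRL), 8909 (24H) and 8051 CPM (48H) became 9130, 8328 and 8427 CPM over raw library totals and 9530, 9631 and 8656 CPM without ribosomal RNA genes, where the denominator is smaller.

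Samples with the same replicate number did not deviate together more than others. Their correlations ran from -0.12 to 0.091 over 9 pairs, against -0.10 to 0.16 over 18 pairs with different numbers. With so few libraries, these ranges cannot show whether equal numbers stood for a shared culture or preparation. With the replicate number as a block, 2 genes passed at 48H against CTRL (6.43% of all genes did) and 3 at 48H against 24H (4.96%), and with GC correction as well as the block 1 (4%) and 3 (4.44%).

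Reversed signs were limited to differences that did not pass. With GC correction PKM at 24H was 0.015, HIF1A at 48H was -0.020 and HIF1A at 48H against 24H was -0.025, and with the block added they were 0.015, -0.021 and -0.026. Leaving out libraries gave log2 fold changes of -0.039 to 0.025 for PKM, -0.0015 to 0.071 for PFKP, -0.038 to 0.10 for PDK1 and -0.52 to 0.16 for CA9 at 24H, -0.15 to 0.053 for PDK1 and -0.53 to 0.37 for CA9 at 48H, and -0.0068 to 0.043 for HIF1A, -0.19 to 0.0099 for PDK1 and -0.38 to 0.64 for CA9 at 48H against 24H. Without 24H replicate 1 and 48H replicate 3, PDK1 was at 0.049 at 48H and HIF1A at -0.0068 at 48H against 24H. The cause of these changes was not tested. EGLN3 and CA9, with at most 16 counts in a library, are limited by depth.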
